A study of Homo sapiens with 5 samples.

Results

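The levels of 10 genes that control entry into S phase were followed in BT474, an established cell line from a luminal breast cancer with amplified HER2. They are the D-type cyclins CCND1, CCND2 and CCND3, their kinases CDK4 and CDK6, the E-type cyclins CCNE1 and CCNE2, their kinase CDK2, and the RB family genes RB1 and RBL2. They were chosen by name, and all 10 were found, each on a single row, among the 18510 gene symbols (18803 rows) of the authors' deposited table. The persister group (3 libraries) consisted of cells left after 9 days of lapatinib at 2 µM, a drug that blocks the kinases of HER2 and EGFR, with new drug and medium every 3 days, starting from cells at 75% confluence. The parental group (2 libraries) was kept in parallel without lapatinib, and both groups received 0.01% DMSO. Both groups are the same cell line, and the labels name no engineered allele. RNA came from equal cell numbers, but levels are relative to the RNA sequenced, so fewer cells expressing a transcript cannot be told apart from less of it per cell.

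In cells that leave quiescence, mitogen signals raise the D-type cyclins, which bind CDK4 or CDK6 and begin the phosphorylation of RB. Phosphorylated RB releases activating E2F factors, which induce genes for DNA replication and the E-type cyclins. Cyclin E with CDK2 then completes the phosphorylation of RB and commits the cell to S phase. RBL2 encodes p130, the RB relative that binds E2F4 and the MuvB proteins in resting cells (the DREAM complex) and keeps cell cycle genes silent. In HER2-driven breast cells, signalling from the receptor through PI3K and ERK is known to sustain cyclin D1.

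The authors' table gives each group a single FPKM value (fragments scaled to transcript length and to library size) and lists a q-value between the groups, so no value below has an SD or an n. A gene is said to have risen or fallen where that q-value was under 0.05. Differences are log2(FPKM + 1), persister minus parental, and folds are ratios of FPKM. FPKM is per length, so levels of different genes are compared and added on that scale within a group. The sources do not say that replicates came from separate cultures beyond calling them biological, and the spread between libraries entered only through the authors' test. The order of levels within a group is therefore given without a statement on which neighbours differ.

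Upstream sequences were available for 6 of the 10 genes in RefSeq (build GRCh38.p14), each spanning 250 bases before to 50 after a start site. CCND1, CCND2, CCNE2 and CDK2 did not match an entry. Those of 3 genes are shown because their genes moved in distinct ways: CCNE1 fell, CDK4 held most of its level and RBL2 rose. Capitals mark the E-box word CACGTG, which MYC and related factors bind, and the GC box word GGGCGG, which SP1 and related factors bind, on either strand.
CCNE1, chr19:29811741-29812040, plus strand: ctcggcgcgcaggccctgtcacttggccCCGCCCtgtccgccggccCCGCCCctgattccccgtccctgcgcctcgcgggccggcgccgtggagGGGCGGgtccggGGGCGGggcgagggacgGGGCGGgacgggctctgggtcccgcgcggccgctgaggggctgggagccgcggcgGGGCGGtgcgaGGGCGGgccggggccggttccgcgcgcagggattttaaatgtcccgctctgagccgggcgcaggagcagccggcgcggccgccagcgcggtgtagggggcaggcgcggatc
CDK4, chr12:57752261-57752560, minus strand: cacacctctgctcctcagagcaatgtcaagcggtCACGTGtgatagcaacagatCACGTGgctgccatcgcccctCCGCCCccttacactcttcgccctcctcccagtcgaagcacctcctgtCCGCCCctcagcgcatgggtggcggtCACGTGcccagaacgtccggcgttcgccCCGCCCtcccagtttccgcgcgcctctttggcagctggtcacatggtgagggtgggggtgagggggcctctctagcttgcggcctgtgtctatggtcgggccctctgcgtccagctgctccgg
RBL2, chr16:53434221-53434520, plus strand, the first of 2 starts: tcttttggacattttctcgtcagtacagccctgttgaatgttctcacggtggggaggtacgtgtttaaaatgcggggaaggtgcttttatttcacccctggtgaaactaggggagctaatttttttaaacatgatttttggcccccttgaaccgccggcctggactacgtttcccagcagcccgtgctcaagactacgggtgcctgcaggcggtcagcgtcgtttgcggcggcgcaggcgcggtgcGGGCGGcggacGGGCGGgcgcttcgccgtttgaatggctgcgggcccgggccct

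The CDK4 window held the E-box at 3 places, beginning at positions -216, -196 and -101 from the start site, against 7.26% of all 35116 upstream windows of the same length with at least 1. A CDK6 window held it once, so 2 of the 6 genes had an E-box, against 8.77% of all 27305 genes with an entry. The GC box stood 7 times in the CCNE1 window, 3 times in that of CDK4 and 2 times in that of RBL2. It was found in 5 of the 6 genes, all but RB1, which had a single window. Of all windows 45.0% held it, and of all genes with an entry 48.3%. The E2F words searched were TTTGGCGC, TTTCCCGC, TTTGCCGC and TTTCGCGC on both strands, and none was found in the windows of the 6 genes. A forkhead word, GTAAACA, was found in 1 of the 6 genes (CCND3, at a distant start), and an AP-1 word, TGANTCA, in 1 (RB1). The single RB1 window (chr13:48476200-48476499) had 38.3% G and C bases. Whether it holds the main start of RB1 was not checked, so it is not read as the RB1 promoter. The E2F, forkhead and AP-1 words were in 3.31%, 3.42% and 7.71% of all windows. By gene, the shares were 3.99%, 4.19% and 9.37% of all genes with an entry, some of which have several windows. N stands for any base, and the E2F and GC box words can share bases. A match is a description of letters and not of binding.

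Most of the 10 genes differed between the groups, in both directions. Both E-type cyclins, CDK2 and the expressed D-type cyclins CCND1 and CCND3 fell to between 0.192 and 0.460 of the parental level. The partner kinases of the D-type cyclins did not follow them: CDK4 was listed at 0.852 of its parental level and CDK6 at 1.92 times. RB1 was at 1.03 times its parental level, and RBL2 rose 2.51-fold. By the authors' deposited q-values, 9 of the 10 were called, 3 higher and 6 lower in persister cells. Over all 13615 tested genes, 69.9% were called, 30.9% higher and 39.0% lower, so the number of calls alone says little about these genes. Counting only called differences of at least 1 as deposited, 5 of the 10 were lower and 1 was higher, against 6.02% and 2.98% of all tested genes. These counts depended on scaling. With FPKM scaled to an equal sum in each group, CCND1 (-0.76), CCND3 (-0.84) and CCNE1 (-0.92) fell short of that limit and CDK6 (1.23) passed it. The shares of all tested genes were not computed on that scale.

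**Figure D1:**
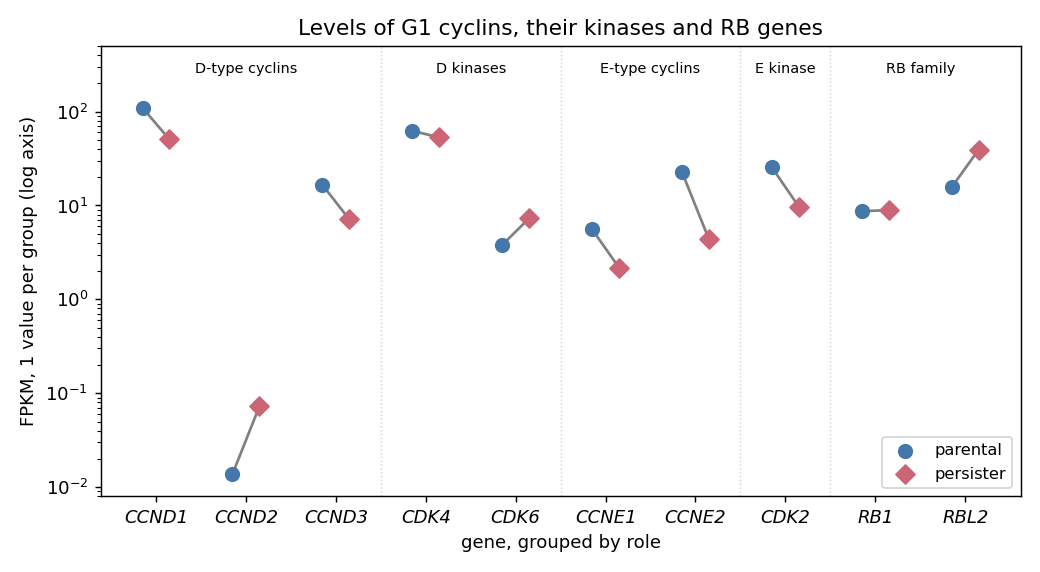
FPKM of each gene in parental cells (blue circles) and persister cells (red diamonds), 1 value per group on a log axis, ordered by role. CCND1 (110 to 50.4), CCND3, CCNE1, CCNE2 and CDK2 slope down, CDK6 and RBL2 (15.7 to 39.4) slope up, RB1 is level, and CCND2 stays under 0.1 in both groups.

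Among the D-type cyclins, CCND1 carried nearly all of the message. Its level went from 110 FPKM to 50.4 FPKM, a difference of -1.11 (q-value listed as 0), and made up 86.9% of the summed D-type FPKM before and 87.5% after treatment. Even so reduced, it stood at the 92.8th percentile of all tested genes in persister cells, against the 96.2nd in parental cells. CCND3, the D-type cyclin common in lymphoid and differentiating cells, fell from 16.6 to 7.11 FPKM (difference -1.12, q-value listed as 0). Its 4 listed transcripts were combined by the authors, so a change of isoform would not be seen. The ratio of CCND1 to CCND3 was 6.62 in parental and 7.09 in persister cells, and the 2 genes thus kept nearly the same proportion. CCND2, known from ovarian and haematopoietic cells, was called higher (q = 2.12e-07) at 0.0137 and 0.0724 FPKM. These levels lay at the 0.558th and 2.64th percentiles of tested genes, and CCND2 contributed 0.126% of the D-type sum in persister cells, so its call concerns a barely detected transcript.

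CDK4 and CDK6, the catalytic partners, behaved differently from the cyclins and from each other. CDK4 was listed at 62.3 and 53.1 FPKM, a difference of -0.23 (q = 0.00464 in the authors' table), and became the most abundant of the 10 transcripts in persister cells. Its direction depended on scaling: the difference was -0.11 relative to the median gene and 0.13 with FPKM scaled to an equal sum in each group. CDK6 rose from 3.80 to 7.29 FPKM (difference 0.79, q-value listed as 0), from the 38.4th to the 53.0th percentile of level. CDK6 made up 5.75% of the summed CDK4 and CDK6 FPKM in parental cells and 12.1% in persister cells. CDK4 still exceeded CDK6 7.28-fold in persister cells, against 16.4-fold in parental cells. The gene body of CDK4 overlaps TSPAN31, which was listed at 11.5 and 15.2 FPKM, and the libraries kept no strand, so reads in shared sequence cannot be assigned to either with certainty.

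The summed E-type message fell to 0.231 of the parental level and the summed D-type message to 0.456, and CCNE2 had the largest fall. CCNE2 dropped from 22.7 to 4.35 FPKM, 5.21-fold lower, with a difference of -2.15 (q-value listed as 0), which only 1.19% of tested genes were below. CCNE1 fell from 5.58 to 2.17 FPKM, 2.57-fold lower, with a difference of -1.05 (q-value listed as 0). CCNE2 was the larger of the pair in both groups, by 4.07-fold in parental and 2.00-fold in persister cells. CDK2, the kinase that both activate, fell from 25.4 to 9.69 FPKM (difference -1.31, q-value listed as 0). The gene body of CCNE2 overlaps INTS8 (19.5 and 11.2 FPKM) and NDUFAF6 (27.6 and 13.7 FPKM), both called lower as well, and their share in the CCNE2 value was not tested.

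Set against each other, the fall of CCND1 and CCND3 was close to that of CCNE1, and CCNE2 stood apart. The median difference was -1.11 for the 3 D-type and -1.60 for the 2 E-type cyclins, so the D-type median was higher by 0.49, with no test possible on 1 value per group. On the ratio of FPKM, CCND1 was at 0.460, CCND3 at 0.429, CCNE1 at 0.390 and CCNE2 at 0.192 of the parental level. On the log2(FPKM + 1) scale CCNE1 (-1.05) instead fell slightly less than CCND1 and CCND3, and with a pseudocount of 0.1 it fell more (-1.32 against -1.12 and -1.21). The order of those 3 genes thus depended on the pseudocount, while CCNE2 had the largest fall of the 5 G1 cyclins in each of these settings.

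Summed over the class, D-type cyclins went from 126 to 57.6 FPKM and E-type cyclins from 28.3 to 6.53 FPKM. The ratio of D-type to E-type message, which does not depend on how the groups were scaled, was 4.47 in parental and 8.83 in persister cells. CDK4 and CDK6 together were at 66.1 and 60.4 FPKM (0.913 of the parental level as deposited, 1.17 times with equal sums), so that D-type cyclin message per unit of kinase message went from 1.91 to 0.954. For the E-type cyclins and CDK2, which both fell, the same ratio went from 1.11 to 0.673. The kinases of the D-type cyclins exceeded CDK2 by 2.60-fold in parental and 6.23-fold in persister cells.

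**Figure D2:**
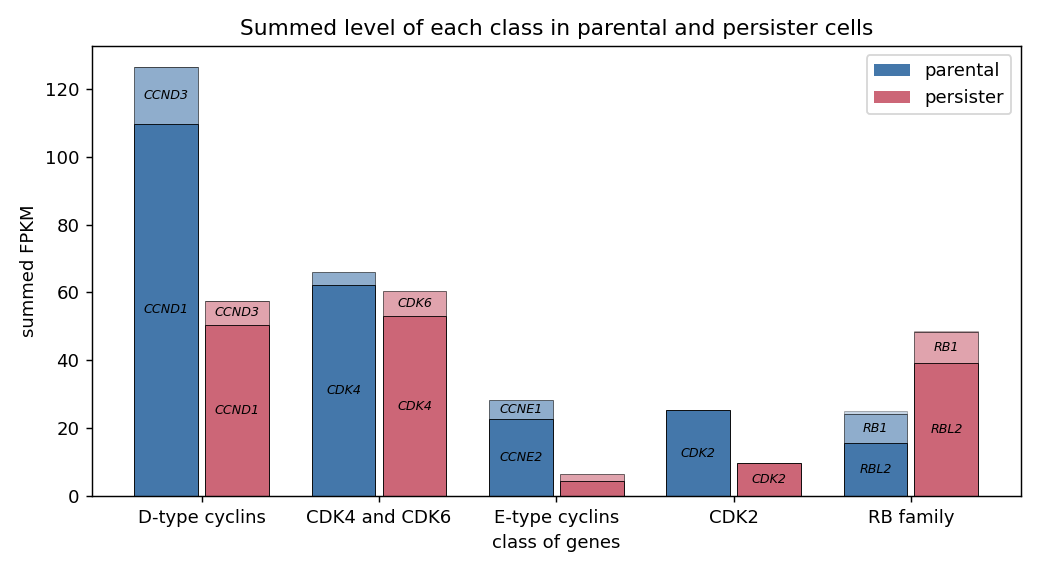
Summed FPKM of each class (bar height, starting at 0) in parental (blue) and persister (red) cells, with each gene as a segment. The bars of D-type cyclins (126 and 57.6), E-type cyclins (28.3 and 6.53) and CDK2 drop, CDK4 with CDK6 is at 66.1 and 60.4 (higher in persister cells only with equal sums), and the RB family (25.1 and 48.6, RBL1 included) grows through RBL2.

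RB1, the retinoblastoma tumour suppressor, had 8.68 FPKM in the parental and 8.93 FPKM in the persister group and was not called (q = 0.711, difference 0.04). Its difference was 0.15 relative to the median gene and 0.38 with equal sums, so RB1 was not lower in persister cells under any scaling tried. RBL2 rose from 15.7 to 39.4 FPKM (difference 1.28, q-value listed as 0), above 98.4% of tested genes, and moved from sixth to the third most abundant of the 10. RBL1, which encodes the third relative p107, was added for comparison after its values were seen. It fell from 0.766 to 0.314 FPKM (q = 4.90e-12). RB1 message per unit of RBL2 message was 0.554 in parental and 0.227 in persister cells. Of the summed message of the 3 relatives, RBL2 held 62.4% in parental and 81.0% in persister cells, RB1 34.6% and 18.4%, and RBL1 3.05% and 0.647%. The gene body of RBL2 overlaps AKTIP (13.0 and 14.6 FPKM, not called) and that of RB1 overlaps LPAR6 (1.63 and 2.14 FPKM, not called).

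**Figure D3:**
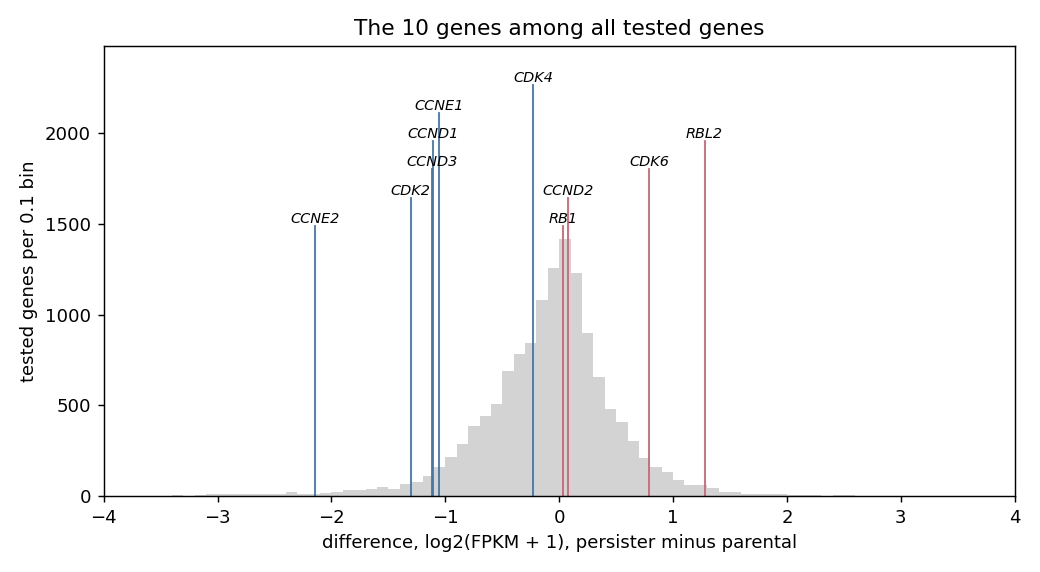
Number of tested genes (grey, 13615 in all) in each 0.1 bin of the log2(FPKM + 1) difference, persister minus parental, with lines for the 10 genes (blue below 0, red above 0; line heights carry no value). CCNE2 (-2.15), CDK2, CCND1, CCND3 and CCNE1 stand in the lower tail, RBL2 (1.28) and CDK6 in the upper tail, and RB1, CCND2 and CDK4 near the middle.

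The inhibitors that act on these kinases did not move as a group. Of the 7 INK4 and CIP/KIP genes, 2 rose, 2 fell and 3 were not called, against 30.9% higher and 39.0% lower of all tested genes. Their median difference was 0.07, against -0.04 for all tested genes. The most abundant, CDKN1B (p27, an inhibitor of cyclin E-CDK2), was listed at 40.2 and 42.1 FPKM and CDKN1A (p21) at 21.3 and 21.9 FPKM, neither called (q = 0.425 and 0.725). CDKN1C (p57) rose from 0.501 to 1.53 FPKM. Among the INK4 genes, which block CDK4 and CDK6, CDKN2B rose from 0.529 to 1.42 FPKM, CDKN2C and CDKN2D fell to 1.29 and 1.85 FPKM, and CDKN2A was listed at 3.24 and 3.95 FPKM (not called). CDKN1B message per unit of E-type cyclin message was 1.42 in parental and 6.46 in persister cells. For the INK4 genes against CDK4 and CDK6 the ratio went the other way, from 0.272 to 0.141.

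E2F and DP transcription factors, the partners that RB family proteins hold, were mostly lower. Among the 10 tested there were 8 falls and 1 rise (39.0% and 30.9% of all tested genes), and the median was -0.51. With equal sums the direction split of those called was 2 higher and 7 lower. The activator E2F1 fell from 9.12 to 1.07 FPKM and E2F2 from 3.49 to 0.537 FPKM, and the atypical repressors E2F7 and E2F8, which E2F1 is known to induce, to 0.191 and 0.456 FPKM, respectively. The summed activators E2F1, E2F2 and E2F3 went from 21.4 to 7.50 FPKM, of which E2F3 made up 8.83 and 5.89 FPKM. E2F4 and E2F5, the usual partners of p130, were at 31.2 and 28.8 FPKM together (0.923 of the parental level as deposited, 1.18 times with equal sums). Of these, E2F4 was not called and E2F5 fell from 5.76 to 4.44 FPKM, a difference of -0.31 (-0.02 with equal sums). Activator E2F message per unit of RB1 message was 2.47 in parental and 0.840 in persister cells. Among RBL1, the MuvB and B-MYB genes and DYRK1A (not called), 4 of 8 tested fell and 1 rose (39.0% and 30.9% of all tested genes), with a median of -0.30. MYBL2 (B-MYB) fell from 22.9 to 1.83 FPKM, LIN9 from 7.02 to 2.92 FPKM and LIN54 from 6.07 to 2.95 FPKM, while LIN37 rose from 5.32 to 7.63 FPKM. FOXM1 was listed at 36.7 and 3.41 FPKM with a fold and a q-value both set to 1, so it has no estimate from the authors' test.

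Genes induced by E2F at the G1/S transition all fell, 20 of 20 (against 39.0% of all tested genes), with a median of -1.95. CCNA2 (cyclin A2) fell from 27.7 to 1.77 FPKM, a larger difference (-3.37) than that of any of the 10 genes, followed in this list by RRM2 (-3.10), CDC6 (-2.91) and TK1 (-2.85). An E2F word stood upstream of 11 of the 17 of these genes with an entry, against 3.99% of all 27305 genes with one. The list was made of genes known to be induced by E2F, so that share may reflect the choice and is not a separate result. Cyclins A, B and F, which act later in the cycle, fell in 4 of 5 tested cases (against 39.0% of all tested genes), with a median of -3.24. They were CCNB1 (-3.51), CCNB2 (-3.24), CCNF (-1.66) and CCNA2, which is counted in the G1/S list as well. The differences of the G1 cyclins, down to -2.15, were thus smaller than those of CCNA2, CCNB1 and CCNB2.

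Regulators of CDK phosphorylation and of cyclin turnover were mostly called lower, in most cases by less than 1. Of 6 genes for CDK activation and its control, 5 fell and 0 rose (39.0% and 30.9% of all tested genes), with a median of -0.53. Of these, 2 fell by at least 1: PKMYT1 from 19.7 to 2.22 FPKM and the phosphatase CDC25A, which activates CDK2, from 6.11 to 0.735 FPKM. Smaller falls were those of WEE1, an inhibitory kinase, from 34.6 to 21.4 FPKM (-0.67) and CCNH, of the CDK-activating kinase, from 6.04 to 4.34 FPKM (-0.40). Of 11 genes for cyclin and inhibitor turnover, 8 fell and 2 rose (39.0% and 30.9% of all tested genes), with a median of -0.27. Of these, 1 (CKS1B) was lower by at least 1, and with equal sums 6 of those called were lower and 4 higher. CKS1B, the cofactor that lets SKP2 recognise p27, fell from 42.0 to 7.72 FPKM, SKP2 itself from 9.60 to 5.98 FPKM, RBX1 from 62.6 to 34.1 FPKM and CUL1 from 26.0 to 17.0 FPKM.

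As deposited, transcription factors known to induce cyclin D1 moved both ways and mostly by little. Among the 12 tested, 7 were called higher and 3 lower (30.9% and 39.0% of all tested genes), and the median was 0.18. At a q-value under 0.01 there were 3 higher and 2 lower (26.9% and 35.2% of all), and with a difference of at least 1 there were 0 higher and 1 lower, EGR1. With equal sums, 8 of the genes called at a q-value under 0.05 were higher and 2 lower. Their list then had a median of 0.54, against 0.24 for all tested genes. EGR1, an early response gene of the ERK pathway, fell from 7.61 to 1.31 FPKM, while TCF7L2 rose from 4.70 to 9.93 FPKM, the estrogen receptor gene ESR1 from 12.4 to 18.2 FPKM and FOS from 2.75 to 4.17 FPKM. Of 11 genes for RB-associated chromatin proteins, 6 fell and 3 rose (39.0% and 30.9% of all tested genes). Their median was -0.23, and 0.12 with equal sums, where 5 of those called were lower and 4 higher. DNMT1 fell from 58.6 to 21.8 FPKM, SUV39H1 from 9.21 to 4.18 FPKM and the deacetylase HDAC2 from 27.0 to 15.1 FPKM, and ARID4A rose from 3.24 to 5.96 FPKM.

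The wider cyclin and CDK families gave no common direction. Of 15 other cyclins 3 rose and 8 fell (30.9% and 39.0% of all tested genes), with a median of -0.16. With equal sums 5 of those called were higher and 6 lower, with a median of 0.09. CCNG2, an unconventional cyclin induced by FOXO factors in arrested cells, rose from 36.8 to 101 FPKM, a difference of 1.44 that exceeded that of RBL2, and CCNL2, a cyclin of splicing, from 43.7 to 76.3 FPKM. CCNG1, a p53 target, fell from 24.0 to 11.7 FPKM and CCNYL1 from 4.30 to 1.65 FPKM. Of 15 other CDKs tested, 3 rose and 7 fell (30.9% and 39.0% of all tested genes), with a median of -0.07. With equal sums 5 of those called were higher and 5 lower, with a median of 0.28. CDK1, the mitotic kinase, had the largest change at -3.49. The Mediator kinase CDK8 fell from 9.53 to 4.81 FPKM while its paralog CDK19 rose from 5.22 to 8.99 FPKM, and CDK12 fell from 115 to 85.2 FPKM.

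**Figure D4:**
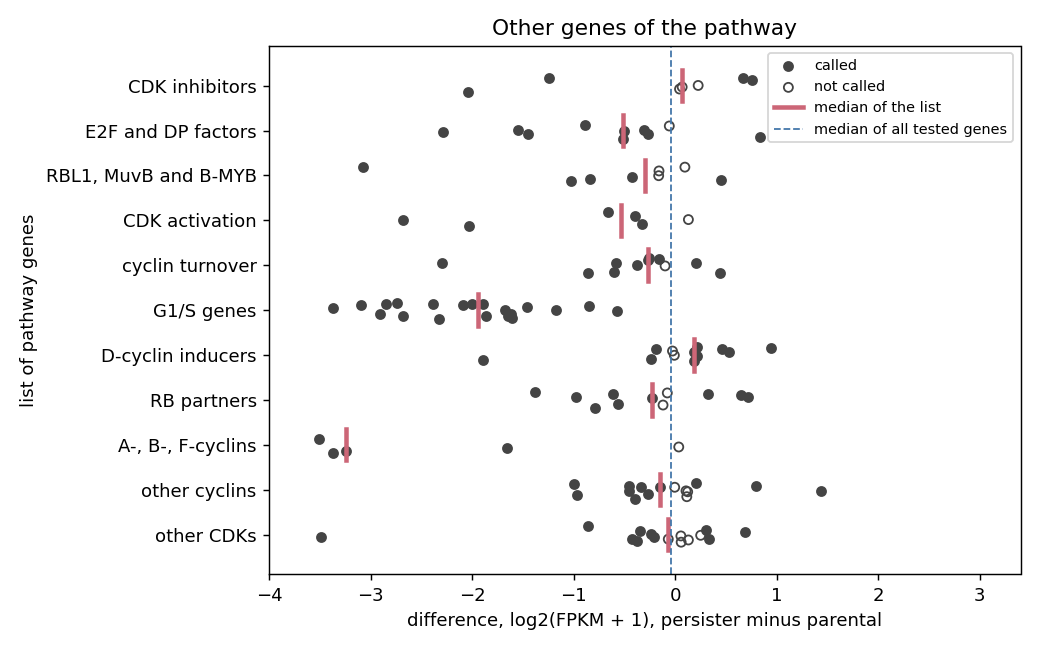
Log2(FPKM + 1) difference, persister minus parental, of each tested gene (filled, called by the authors' q-value; open, not called) in 11 lists of the pathway, with the median of each list (red bar) and of all tested genes (dashed line, -0.04). All 20 G1/S genes lie below 0 (median -1.95), and the CDK inhibitors spread to both sides (median 0.07).

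Several facts of the whole table touch these values. FPKM summed to 333324 over the parental column and 260213 over the persister column, and the median difference of the 10158 tested genes with at least 1 FPKM in both groups was -0.12. Of all called genes 44.2% were higher as deposited and 54.8% with equal sums. Of 8 commonly used reference genes, 6 were called lower and 1 higher (39.0% and 30.9% of all tested genes), with a median of -0.62 (-0.26 with equal sums). RPLP0 was at 650 and 649 FPKM, TBP rose from 5.81 to 7.47 FPKM, and ACTB fell from 1518 to 520 FPKM, 3 examples chosen after their values were seen. Of 9 luminal markers 8 were tested, of which 5 were called lower and 3 higher (39.0% and 30.9% of all tested genes). Those lower included KRT8 at 730 and 565 FPKM, and those higher were GATA3, ERBB3 and ESR1. The luminal median was -0.40 as deposited and -0.04 with equal sums, where the difference of KRT8 was -0.01. ERBB2, the amplified gene of this line, was listed at 0 in both groups and was not tested. That 0 is not taken as its level. Of 7 fibroblast markers only COL1A1 exceeded 0.1 FPKM, and the list summed to 13.5 and 8.74 FPKM. The 6 immune markers summed to 7.06 and 6.05 FPKM, nearly all LYZ and CD68, with the pan-leukocyte marker PTPRC under 0.01 in both groups, and the 4 endothelial markers to 1.10 and 0.136 FPKM.

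**Figure D5:**
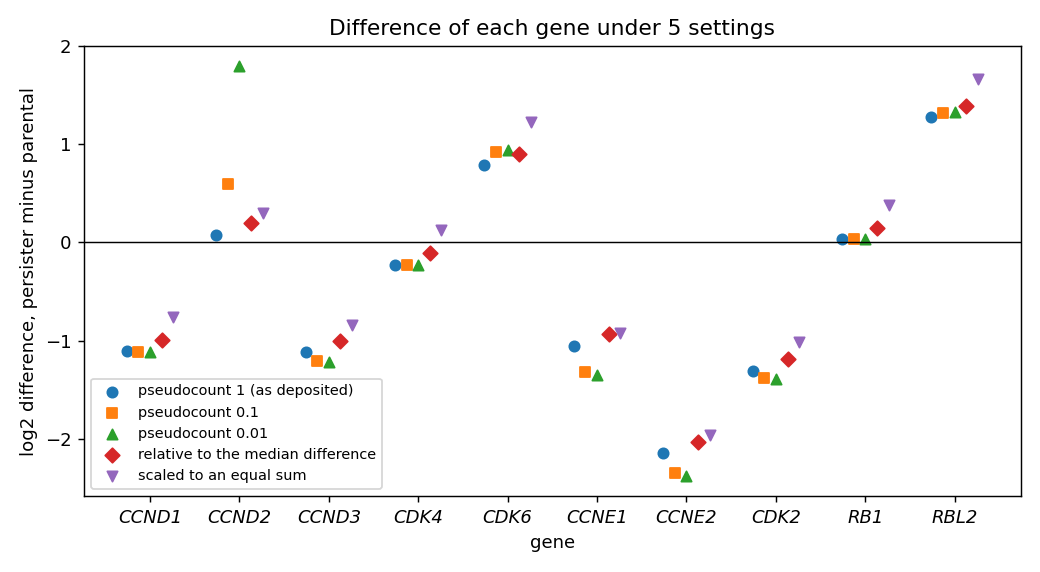
Log2 difference, persister minus parental, of each of the 10 genes with pseudocounts of 1, 0.1 and 0.01, relative to the median gene, and with FPKM scaled to an equal sum in each group. CDK4 crosses 0 (-0.23 to 0.13), CCND2 moves from 0.08 to 0.60 and 1.796 with pseudocounts of 0.1 and 0.01, and the other 8 keep their sign.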

How the data were processed

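Polyadenylated RNA of 2 parental and 3 persister BT474 replicates was sequenced from libraries without strand information, per the labels' protocols. Reads were handled with Cuffdiff 2.0.2, Cufflinks, TopHat2 2.0.6 and CASAVA 1.8 on build hg18, per the submitters' processing notes, which give no settings here. The authors deposited 1 FPKM value per group and gene, combining the libraries, per the file headers. The authors also deposited a q-value, which is listed as 0 in 2712 rows and whose adjustment is not stated, and a fold change not used here. With neither counts nor values per library, depth is unknown and the planned limma test gave way to the authors' q-value (under 0.05 among genes with a q-value below 1).

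Where a symbol stood on several rows, the row of highest mean level was kept. Differences use a pseudocount of 1, which understates changes of low genes. The 10 genes and the 11 pathway lists (123 genes) were chosen with earlier results of these data known. The listed genes CDK3 and CDK11B, were not analysed here. Named genes were the 10, all CDK inhibitors, and from every other list the 4 called genes with the largest difference; others were chosen after their values were seen. Overlaps of gene bodies and promoter sequences came from RefSeq (GRCh38.p14), which is not the authors' build. Functions were tested on simulated data, with Python 3.11.15 and pandas 2.3.3.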

Additional observations from a re-analysis of the deposited data

How the results depend on the processing

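All 10 genes kept their direction with pseudocounts of 0.1 and 0.01, relative to the median gene and with rows of a symbol summed. With FPKM scaled to an equal sum in each group CDK4 reversed, to 0.13, and with scaling over tested genes only, a setting added after seeing the data, to 0.10; the other 9 kept their sign. The D-type median exceeded the E-type median by 0.49 as reported, by 0.72 and 0.75 with pseudocounts of 0.1 and 0.01, and by 0.68 under either sum scaling. With equal sums the persister level relative to parental was 0.584 for D-type cyclins, 0.296 for E-type cyclins and 2.54 for RB1 with RBL2, against 0.456, 0.231 and 1.98 as deposited, while CDK4 with CDK6 reversed from 0.913 to 1.17. Requiring a difference of at least 1 as deposited left 1 of the 3 genes called higher (RBL2). With equal sums CDK6 (1.23) passed that limit too, while CCND1, CCND3 and CCNE1 no longer did. A q-value under 0.01 or a minimum of 1 FPKM moved neither count of the 10 genes by more than 1.5 times. Replicates could not be left out in turn, because the table holds 1 value per group. No paired analysis was possible because the table holds no values per library. The depth is unknown, so no limit of detection can be given for CCND2. Of the pathway lists, the G1/S genes and cyclins A, B and F held their counts within 1.5 times in every setting, and each of the other 9 lost calls when a difference of at least 1 was required.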
